A study of Caenorhabditis elegans with 2 samples.

Results

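The nuclear genes of the mitochondrial respiratory chain and ATP synthase were examined in ChIP-seq peak lists of the nuclear hormone receptor NHR-12, a transcription factor of a large C. elegans receptor family, here carrying an eGFP tag, in intact L2 larvae of Caenorhabditis elegans. In ChIP-seq, DNA recovered with a protein is sequenced, and intervals with more reads than a control are listed as peaks, each with a summit. The genes were taken by symbol from WBcel235, the assembly called ce11, as annotated in Ensembl release 115: all nuclear protein-coding genes whose symbols start with nuo-, cox-, cco- or atp-, plus gas-1, cyc-1, cyc-2.1, isp-1, ucr-1, ucr-2.1, ucr-2.2, ucr-2.3, mev-1, sdha-1, sdhb-1 and sdhd-1. The rule gave 38 of 19973 nuclear protein-coding genes. They comprised 7 complex I genes, 4 complex II genes, 6 complex III genes, 1 cytochrome c gene, 7 complex IV subunit genes, 8 complex IV assembly genes and 5 ATP synthase genes. No measured value entered the rule, although the members were chosen with earlier results of these data known. Both biological replicates came from strain OP318, genotype unc-119(ed3) III; wgIs318, in which wgIs318 is the insertion that carries the tagged receptor, with males and females pooled and fragments of 150 to 350 bp selected. The labels name nhr-12 itself as the antibody's target, whereas the sample descriptions name eGFP-nhr-12, the tagged receptor. The strain is 1 transgenic line. The design had 1 group and no second condition, and a sample without the tagged protein was not analysed here, so specificity to NHR-12 was not tested. Whole animals were used, so no cell type can be assigned to a peak.

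The respiratory chain passes electrons through complexes I to IV in the inner mitochondrial membrane, and ATP synthase uses the resulting proton gradient to make ATP. Complexes I, III, IV and ATP synthase combine subunits encoded in the nucleus with subunits encoded in the mitochondrial genome, whereas complex II is encoded wholly in the nucleus. In C. elegans, reduced function of several of these genes, among them isp-1, nuo-6 and cox-5B (also called cco-1), is known to lengthen life, whereas mutants of mev-1 and gas-1 are sensitive to oxidative stress. Many C. elegans genes are transcribed in operons, so the promoter of a gene can lie upstream of its neighbour.

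Few of these genes lay near a thresholded peak, and those that did encode subunits of complex IV, the cytochrome c oxidase. A summit of the thresholded list, the pooled peaks that passed the submitters' threshold on the irreproducible discovery rate, lay within 1000 bp of the 5' end of 3 of the 38 genes (7.89%). The genes were cox-5A, cox-5B and cox-6A. The same rule called 185 of 19973 nuclear protein-coding genes (0.926%). All 3 were complex IV subunit genes, so 3 of those 7 (42.9%) were called, against 0 of 7 in complex I, 0 of 4 in complex II, 0 of 6 in complex III, 0 of 1 for cytochrome c, 0 of 8 among the complex IV assembly genes and 0 of 5 in ATP synthase. These are counts on small groups, a count of 0 in groups of this size is near the share of all genes, and no test of the difference between complexes was run.

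Windows of 101 bases centred on pooled summits are shown for the genes on which the description turns, read from the RefSeq sequence of the ce11 assembly in the direction of the gene. Capitals mark a match to 1 of 5 motifs searched on both strands, which were AGGTCA, the core of many nuclear receptor sites, the E-box CACGTG, the purine repeat GAGAGA, the 6-base word GACGCA and the splice acceptor-like word TTTCAG. In the ucr-2.2 window the repeat is read on the other strand as TCTCTC. The first 3 windows belong to complex IV genes, at III:12905153-12905253 for cox-5A, III:5080882-5080982 for cox-6A and III:2786021-2786121 for the second 5' end of cox-6B, all on the plus strand. The cyc-2.1 window at IV:4750029-4750129 is on the minus strand, and the windows of ucr-2.2 at X:15173717-15173817 and of atp-2 at III:5228129-5228229 are on the plus strand.
cox-5A: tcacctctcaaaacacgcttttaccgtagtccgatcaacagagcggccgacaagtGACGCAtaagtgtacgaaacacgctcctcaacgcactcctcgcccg
cox-6A: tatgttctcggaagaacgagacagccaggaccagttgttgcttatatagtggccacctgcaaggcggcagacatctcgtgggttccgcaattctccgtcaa
cox-6B: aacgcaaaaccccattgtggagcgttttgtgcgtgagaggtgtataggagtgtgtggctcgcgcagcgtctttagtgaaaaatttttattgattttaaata
cyc-2.1: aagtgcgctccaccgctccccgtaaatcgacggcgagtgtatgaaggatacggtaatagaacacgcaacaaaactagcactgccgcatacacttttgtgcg
ucr-2.2: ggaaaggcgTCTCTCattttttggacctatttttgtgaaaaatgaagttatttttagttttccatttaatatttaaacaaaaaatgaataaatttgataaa
atp-2: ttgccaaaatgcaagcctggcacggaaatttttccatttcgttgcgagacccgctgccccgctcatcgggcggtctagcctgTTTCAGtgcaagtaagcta

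The highest signal within 1000 bp of any of the 38 genes was at cox-5A, which encodes a nuclear subunit of cytochrome c oxidase and lies at III:12905491-12906619 on the plus strand. Its summit had a signal of 103.2 in the pooled list, where it was the nuclear summit of rank 7. In replicate 1 the signal was 33.3, at rank 8, and in replicate 2 it was 68.9, at rank 12. The signal was assigned by the peak caller relative to a control, and its scale was not shared by the lists (nuclear median 12.6 in the pooled relaxed list, 3.7 in replicate 1 and 10.7 in replicate 2), so ranks rather than signals can be read across lists. The summit lay 288 bp upstream of the 5' end in the pooled list and in replicate 1 and 291 bp upstream in replicate 2. It was intergenic, and no other annotated gene had its 5' end within 1000 bp, so the assignment to cox-5A had no competitor at that distance. The printed window has GACGCA 5 bases downstream of the pooled summit.

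The strong summit near cox-6A lay farther from its gene. This gene encodes another nuclear subunit of cytochrome c oxidase, at III:5081724-5082995 on the plus strand. The strong summit lay 792 bp upstream in the pooled list with a signal of 42.9 (rank 126), 782 bp upstream in replicate 1 with 17.4 (rank 110) and 843 bp upstream in replicate 2 with 31.3 (rank 136). A small nuclear RNA gene, F54D8.7, occupies III:5080798-5080898 on the minus strand, and its 5' end was only 34 bp from the pooled summit. In replicate 2 the summit fell inside that RNA gene. Both genes are therefore candidates by position, and the lists cannot assign the summit to either. The annotation holds 3 genes named F54D8.7 with identical sequence, and neither of the other copies, both on chromosome IV, had a thresholded or pooled relaxed summit within 1000 bp of its 5' end. Weak summits lay 380 bp upstream of 1 copy in replicate 2 (signal 9.26, rank 21048) and 276 bp upstream of the other in replicate 1 (2.63, rank 26745). How reads from identical copies were placed is not known here. The summits nearest to cox-6A itself were weak and downstream: at 642 bp with a signal of 11.9 in the pooled relaxed list (rank 17059), at 447 bp with 4.58 in replicate 1 (rank 9031) and at 649 bp with 9.05 in replicate 2 (rank 22175).

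The count for cytochrome c oxidase depended on which 5' end is taken for cox-6B. This subunit gene is annotated from 2699663 to 2786859 on chromosome III because 1 of its 2 transcripts starts 86539 bp upstream of the other. At the upstream 5' end, which the rule uses, no pooled relaxed or replicate 2 summit lay within 1000 bp, and replicate 1 had a weak summit with a signal of 2.63 (rank 26615). The shorter transcript runs from 2786202 to 2786754, and a summit lay 131 bp upstream of it with a pooled signal of 50.7 (rank 83). Replicate 1 placed that summit 130 bp upstream with a signal of 9.8 (rank 666), and replicate 2 placed it 133 bp upstream with a signal of 37.9 (rank 74). With the 5' ends of all transcripts, 4 of 7 complex IV subunit genes and 4 of the 38 genes had a thresholded summit, against 196 of all nuclear protein-coding genes (0.981%). The same summit lay 781 bp upstream of nduc-2, a complex I subunit gene outside the rule that starts 98 bp after the short cox-6B transcript ends on the same strand, and 123 bp upstream of the divergent gene Y71H2AM.20.

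**Figure D1:**
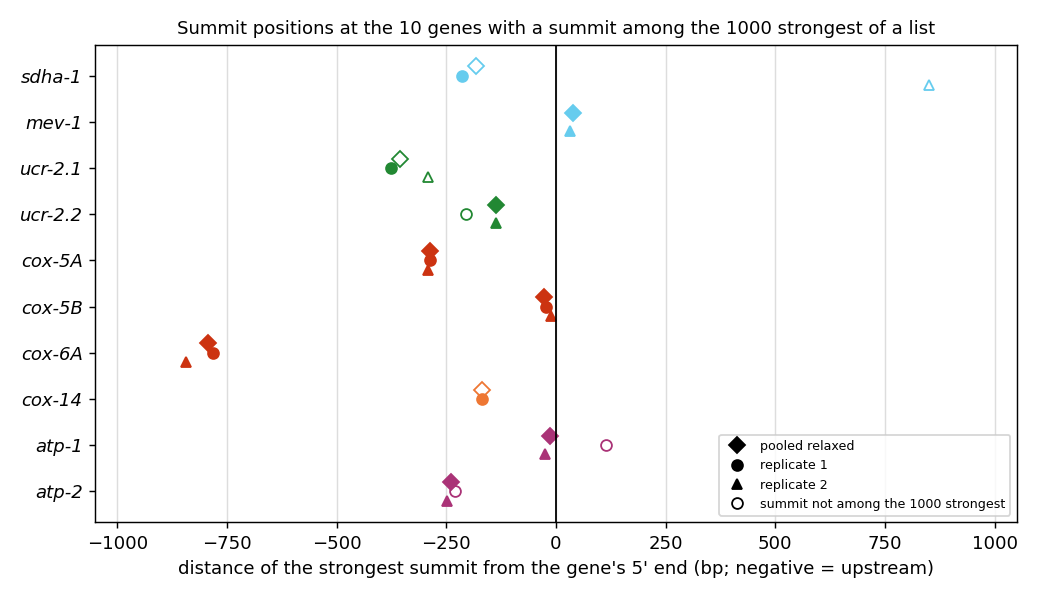
Distance in bp of the strongest summit within 1000 bp from the 5' end (black line) for the 10 genes with a summit among the 1000 strongest of the pooled relaxed, replicate 1 or replicate 2 list; filled markers are summits among the 1000 strongest of their list and open markers are weaker ones. The 3 lists place the cox-5A summit between 291 and 288 bp upstream and the cox-5B summit between 28 and 12 bp upstream, whereas the cox-6A summit lies 782 to 843 bp upstream.

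The cox-5B summit sat at the start of the gene. The protein is the cytochrome c oxidase subunit whose knockdown is widely used in worms to raise the mitochondrial unfolded protein response. The pooled summit lay 28 bp upstream with a signal of 57.2 (rank 63). In replicate 1 it lay 23 bp upstream with a signal of 17.7 (rank 107), and in replicate 2 it lay 12 bp upstream with a signal of 36.7 (rank 82). The summit was intergenic, and the 2 other annotated genes with a 5' end within 1000 bp, F26E4.16 and F26E4.14, are noncoding RNA genes. Thus cox-5A, cox-5B and cox-6A each ranked within the first 136 nuclear summits of the pooled list and of both replicate lists.

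The other 4 complex IV subunit genes had weaker summits at the 5' ends that the rule uses. At cox-4 the signals were 17.4 in the pooled list (rank 4906), 4.18 in replicate 1 and 12 in replicate 2, at 429, 452 and 429 bp upstream. Pooled signals were 11.6 at cox-6C, 691 bp upstream, and 11.1 at cox-7C, 474 bp downstream. The cox-6C signal was 3.33 in replicate 1 and 8.97 in replicate 2. Replicate 1 had no summit within 1000 bp of cox-7C, and the strongest in replicate 2 had a signal of 13.3 (rank 7562), above that list's nuclear median of 10.7. The pooled values of cox-6C and cox-7C lie below that list's nuclear median of 12.6, and that of cox-4 lies above it.

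A cut at the 1000 strongest nuclear summits of each list does not use the submitters' threshold. The thresholded nuclear summits were the 199 strongest of the pooled list, so the pooled cut contains them. For that list, cox-5A, cox-5B and cox-6A therefore had to recur. In the pooled list, 7 of the 38 genes (18.4%) had such a summit within 1000 bp, against 715 of all nuclear protein-coding genes (3.58%). They were mev-1 of complex II, ucr-2.2 of complex III, cox-5A, cox-5B and cox-6A of complex IV, and atp-1 and atp-2 of ATP synthase. Replicate 2 called the same 7 genes, against 609 of all genes (3.05%). Replicate 1 called 6 genes (15.8%), against 703 of all genes (3.52%): cox-5A, cox-5B and cox-6A again, with sdha-1, ucr-2.1 and cox-14. The 3 cytochrome c oxidase genes were called in both replicates, so 7.89% of the 38 genes were, against 194 of all nuclear protein-coding genes (0.971%). The thresholded list was made from these same replicates with a threshold on reproducibility. The recurrence of its 3 genes in both is therefore not separate support. A summit among the 1000 strongest occurred in replicate 2 alone at 4 of the 38 genes, against 415 of all genes (2.08%), and in replicate 1 alone at 3, against 509 of all genes (2.55%). The replicates are labelled biological replicates, and the pooled list is made from both, so it is not a separate measurement.

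**Figure D2:**
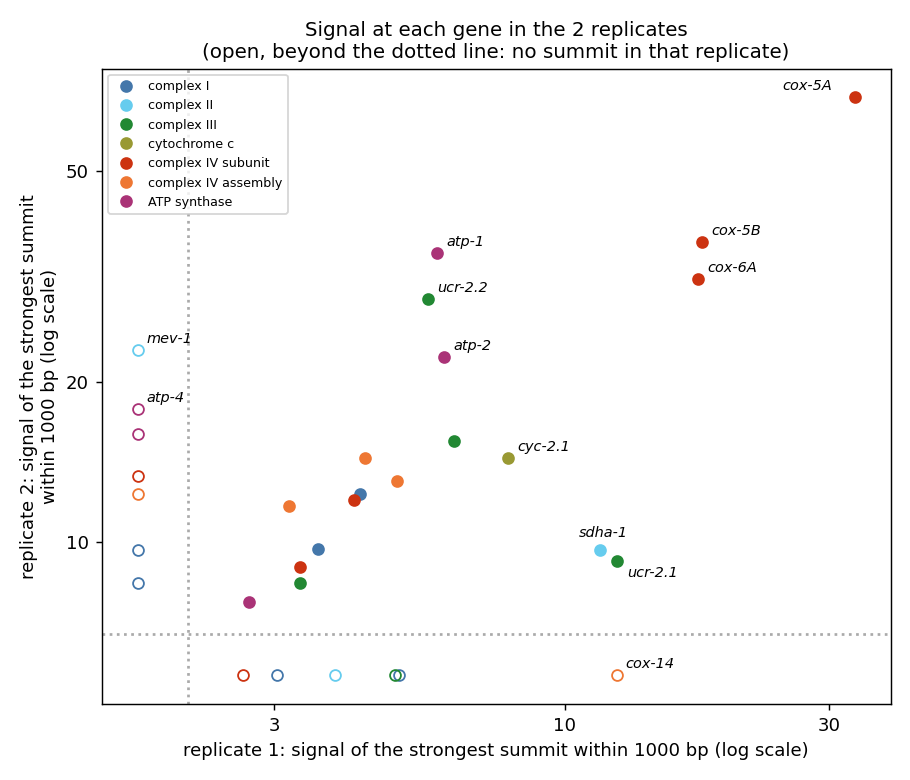
Signal of the strongest summit within 1000 bp of each gene in replicate 1 (horizontal) and replicate 2 (vertical), both on log scales, with 1 point per gene coloured by complex; open points beyond a dotted line had no summit in that replicate, and the 6 genes with none in either are not drawn. The cytochrome c oxidase genes cox-5A, cox-5B and cox-6A are high in both replicates, atp-1, ucr-2.2, atp-2 and mev-1 are high in replicate 2, and sdha-1, ucr-2.1 and cox-14 are high in replicate 1.

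The ATP synthase genes had the highest median percentile among the complexes by the nearest pooled summit, and their percentiles differed between replicates. By the strongest summit within 1000 bp, the median pooled signal over genes with a summit was 25.3 for ATP synthase and 30.2 for the complex IV subunits. Its alpha subunit gene atp-1 had a pooled summit 13 bp upstream with a signal of 36.5, and at rank 219 it lay just outside the 199 nuclear summits of the thresholded list, whose weakest signal was 37.2. The atp-1 signal was 5.9 in replicate 1 (rank 4257, 115 bp downstream) and 35.1 in replicate 2 (rank 90, 24 bp upstream). The divergent gene mcrs-1 starts on the other side of the pooled summit, 177 bp away. The beta subunit gene atp-2 had a signal of 29.4 in the pooled list (rank 458), 6.06 in replicate 1 (rank 3857) and 22.3 in replicate 2 (rank 597). Those summits lay 238, 229 and 249 bp upstream, and the divergent gene C34E10.10 was 295 bp from the pooled one. At atp-4, which encodes the coupling factor subunit, the pooled signal was 21.1 (rank 1996) and the replicate 2 signal 17.8 (rank 2088). At atp-3, which encodes the oligomycin sensitivity subunit, they were 19.5 (rank 2962) and 16 (rank 3511). Replicate 1 had no summit within 1000 bp of atp-3 or atp-4. The subunit d gene atp-5 had no pooled summit within 1000 bp, and its signal was 2.7 in replicate 1 and 7.71 in replicate 2. Ranked among all nuclear protein-coding genes by the signal of the nearest summit, the 5 genes had a median percentile of 95.1 in the pooled list, 56.7 in replicate 1 and 95.7 in replicate 2.

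In each replicate 1 of the 6 complex III genes (16.7%) had a summit among the 1000 strongest. The shares of all genes were 3.52% in replicate 1 and 3.05% in replicate 2. A single gene of 6 gives no reading about the complex. The gene differed between the replicates, and both genes encode core proteins. The ucr-2.2 summit had a pooled signal of 35.2 (rank 240), 137 bp upstream of the gene at X:15173904-15178145, with 5.67 in replicate 1 (rank 4827, 205 bp upstream) and 28.7 in replicate 2 (rank 184, 136 bp upstream). It was intergenic with no other annotated 5' end within 1000 bp, although the same-strand gene ocr-3 ends 268 bp before ucr-2.2. The ucr-2.1 signals ran the other way, with 12.4 in replicate 1 (rank 311) and 9.2 in replicate 2 (rank 21344), and 19.8 in the pooled list (rank 2739). That replicate 1 summit lay 376 bp upstream of ucr-2.1 but only 10 bp from the 5' end of the divergent gene nmat-1. The cytochrome c1 gene cyc-1 had signals of 18.2 in the pooled list, 6.32 in replicate 1 and 15.5 in replicate 2. The Rieske protein gene isp-1 had lower signals, 12.5 in the pooled list, 3.33 in replicate 1 and 8.37 in replicate 2. No summit of the 3 relaxed lists lay within 1000 bp of ucr-1, and ucr-2.3 had summits in replicate 1 alone, the nearest with a signal of 3.42.

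Among complex II genes, mev-1, the cytochrome b subunit of succinate dehydrogenase, had a pooled signal of 26.6 (rank 670) and a replicate 2 signal of 23.0 (rank 498), at 39 and 31 bp downstream of the 5' end, inside its own coding exon. Replicate 1 had no summit within 1000 bp of mev-1. The divergent gene jmjd-4 started 298 bp from the pooled summit. The flavoprotein gene sdha-1 was strong in replicate 1, with a signal of 11.6 (rank 388) 214 bp upstream, inside an exon of the noncoding RNA gene D2021.5, against a nearest replicate 2 summit with 8.28 (rank 26291). The iron-sulfur subunit gene sdhb-1 had a pooled summit with a signal of 10.4, 523 bp downstream, and no summit within 1000 bp in either replicate list. The membrane anchor gene sdhd-1 had 1 in replicate 1, with a signal of 3.85.

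None of the 7 complex I genes of the rule had a summit among the 1000 strongest of the pooled list, replicate 1 or replicate 2, a count near what the shares of all genes give for 7 genes (3.58%, 3.52% and 3.05%). Outside the rule, 28 further genes with complex I symbols included 5 with such a summit in the pooled list (17.9%), 5 in replicate 1 and 4 in replicate 2 (14.3%). The strongest pooled value was 17.1 at the accessory subunit gene nuo-3 (rank 5318), followed by 14.3 at nuo-5, the iron-sulfur core subunit, 11.6 at nuo-4 and 11 at nuo-6. The nearest summits at nuo-1 and gas-1, both core subunits, were in replicate 1 alone with signals of 3.78 and 3.03. No summit of the 3 relaxed lists lay within 1000 bp of nuo-2. The 7 genes had a median pooled percentile of 66.4.

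None of the 8 complex IV assembly genes had a thresholded summit, a count near the share of all genes (0.926%). These genes encode proteins that act in the assembly of complex IV. A summit among the 1000 strongest of replicate 1 lay near 1 of the 8 (12.5%), against 3.52% of all genes, and a single gene gives no reading. That gene was cox-14, with a signal of 12.4 in replicate 1 (rank 319, 168 bp upstream), 14.2 in the pooled list (rank 10422) and no replicate 2 summit. Its divergent neighbour rde-4 starts 128 bp from that replicate 1 summit. The heme gene cox-10 had 16.5 in the pooled list, 4.37 in replicate 1 and 14.4 in replicate 2. Pooled nearest-summit signals were 11.8 at cox-11, 10.7 at cox-18 and 11.9 at cox-19. The highest pooled signal among the assembly genes was 16.9, at a second cox-11 summit 818 bp upstream (rank 5505). No relaxed summit lay within 1000 bp of cox-15, cox-16 or cox-17. Outside the rule, sco-1, whose human counterparts deliver copper to the oxidase, did have a thresholded summit 201 bp upstream, with signals of 43.7 in the pooled list (rank 118), 9.37 in replicate 1 (rank 779) and 31.8 in replicate 2 (rank 131).

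Cytochrome c itself, the mobile carrier between complexes III and IV, lay next to 1 of the strongest nuclear peaks but just outside the distance limit. The cyc-2.1 gene is at IV:4747895-4749012 on the minus strand, and the ribosomal protein gene rpl-20 ends 111 bp before it on the same strand. A summit with a pooled signal of 107.0 (rank 6) lay 1067 bp upstream of cyc-2.1 and 301 bp upstream of rpl-20. The divergent coding gene Y17G9B.5 starts 161 bp from the same summit, nearer than either. Its signal was 20.2 in replicate 1 (rank 66) and 87.2 in replicate 2 (rank 3). Operon annotation was not used here, so whether cyc-2.1 and rpl-20 share a promoter there was not tested. Within 1000 bp, the nearest pooled summit of cyc-2.1 was 266 bp downstream with a signal of 19.2 (rank 3216).

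**Figure D3:**
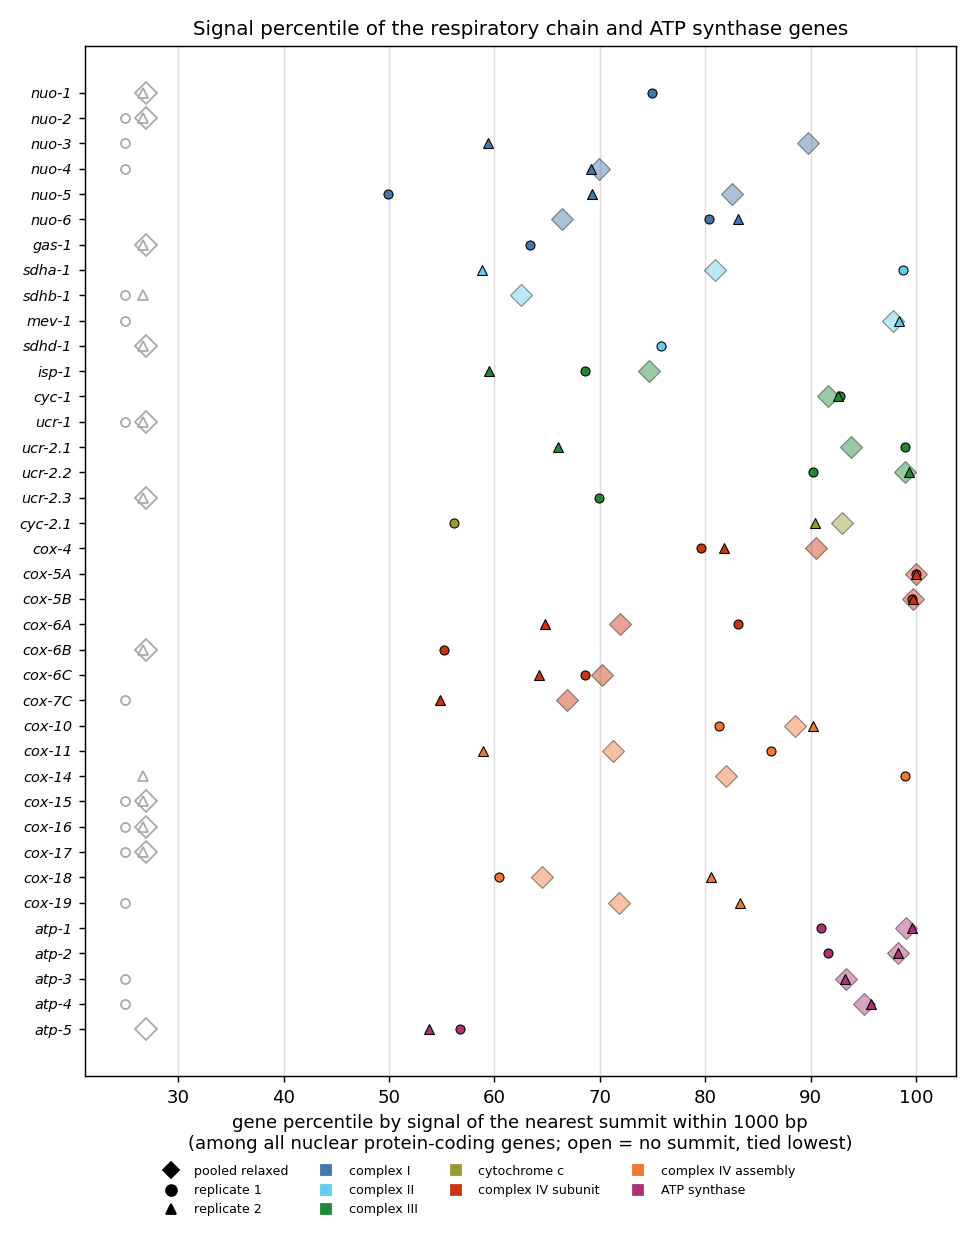
Percentile of each of the 38 genes among 19973 nuclear protein-coding genes by the signal of the nearest summit within 1000 bp, in the pooled relaxed list (diamonds), replicate 1 (circles) and replicate 2 (triangles); grey open markers are genes with no summit, which tie at the lowest percentile of each list. The cox-5A and cox-5B markers sit together at the right edge, the ATP synthase genes spread between replicates, and cox-6A appears at the weak downstream summit because the strong one is not the nearest.

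Relaxed lists, which hold background by construction, reached most of the 38 genes. A pooled relaxed summit lay within 1000 bp of 27 genes (71.1%), against 9213 of all nuclear protein-coding genes (46.1%). In replicate 1 the count was 25 (65.8%), against 10007 of all genes (50.1%), and in replicate 2 it was 26 (68.4%), against 9305 of all genes (46.6%). At the other 11 genes the nearest pooled summit lay from 1381 bp away at atp-5 to 12066 bp away at cox-16. By complex, pooled summits reached 4 of 7 complex I genes, 3 of 4 complex II genes, 4 of 6 complex III genes, the cytochrome c gene, 6 of 7 complex IV subunit genes, 5 of 8 assembly genes and 4 of 5 ATP synthase genes. Both replicate lists held a summit at 19 of the 38 genes (50%), against 27.4% of all nuclear protein-coding genes. None of the 3 relaxed lists did at 5 genes (13.2%), nuo-2, ucr-1, cox-15, cox-16 and cox-17, against 28.9% of all genes. The median percentile of the 38 genes was 71.9 in the pooled list, against 26.9 for all genes, the value at which all genes without a summit tie.

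The difference in share between the respiratory genes and all nuclear protein-coding genes was widest in ratio, in the pooled list, among the strongest summits. With the 200 strongest pooled summits, 7.89% of the 38 genes were reached against 0.931% of all genes. With 2000 summits the shares were 21.1% against 5.92%, and with 20000 summits they were 63.2% against 35.1%. Shares of the 38 genes are steps of single genes, and no test of the difference was run.

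**Figure D4:**
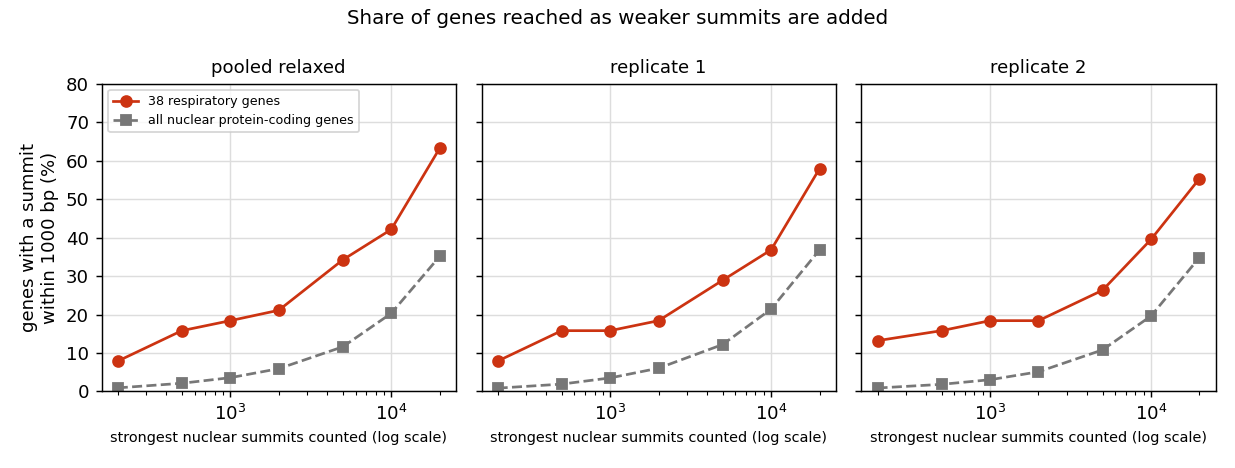
Percent of genes with a summit within 1000 bp as the number of strongest nuclear summits counted grows from 200 to 20000 (log scale), for the 38 respiratory genes (red circles) and all nuclear protein-coding genes (grey squares), in the pooled relaxed, replicate 1 and replicate 2 lists. The red line lies above the grey line at every number plotted, at 18.4% against 3.58% for 1000 pooled summits.

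Replicate positions matched most closely at cox-5A and cox-5B among the 38 genes. Of the 19 genes with a summit in both replicate lists, 8 (42.1%) had nearest summits within 100 bp of each other, against 1366 of 5474 such nuclear protein-coding genes (25%). The gaps were 3 bp at cox-5A, 11 bp at cox-5B, 20 bp at atp-2, 23 bp at cox-4, 60 bp at nuo-5, 69 bp at ucr-2.2, 84 bp at ucr-2.1 and 88 bp at isp-1. At the other 11 they were from 124 bp at cyc-1 to 1294 bp at cox-11, with 139 bp at atp-1. The gap of 202 bp at cox-6A was between its weak downstream summits. Its strong summits, which are not the nearest, lay 782 bp upstream in replicate 1 and 843 bp upstream in replicate 2. Spearman's rho between the replicates' gene percentiles was 0.35 across the 38 genes and 0.20 across all nuclear protein-coding genes, where the points share the same libraries and genes without a summit tie.

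Nearest pooled summits lay mostly upstream, as they did over all nuclear protein-coding genes. Of the 27 genes with one, 19 (70.4%) had it upstream of the 5' end, against 63.6% of all nuclear protein-coding genes with one, at a median signed position of -137 bp against -165 bp. The summit was within 300 bp of the 5' end at 16 of the 27 (59.3%), against 3685 of 9213 of all genes with one (40%). Gene arrangement varied: 13 of the 38 genes (34.2%) had a same-strand gene ending less than 500 bp upstream, the spacing seen within operons, against 18.1% of all nuclear protein-coding genes. Thresholded summits lay at 0 of these 13 and at 3 of the other 25, where the shares over all genes were 0.748% and 0.966%. Summits among the 1000 strongest pooled ones lay at 1 of the 13, ucr-2.2, and at 6 of the 25, where the shares over all genes were 2.88% and 3.73%. A divergent coding gene started within 1000 bp of 21 of the 38 genes (55.3%), against 17.7% of all genes. Of those 21, 0 had a thresholded summit and 3 had a summit among the 1000 strongest pooled ones, against 2.4% and 7.63% of all genes with a divergent neighbour. Of the other 17, 3 had a thresholded summit and 4 had a summit among the 1000 strongest, against 0.608% and 2.71% of all genes without such a neighbour. The counts are too small to read a direction from, and none was tested.

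The summit sequences differed in base composition between ucr-2.2 and the rest. At the 7 genes with a summit among the 1000 strongest pooled ones, the GC content of the window was 54.5% at cox-5A, 55.4% at cox-5B, 52.5% at cox-6A, 56.4% at atp-1, 53.5% at atp-2, 50.5% at mev-1 and 22.8% at ucr-2.2. The median was 53.5%, against 35.1% over the 1000 strongest pooled nuclear summits and 27.7% over all 29401. The extra windows at cox-6B and cyc-2.1 had 41.6% and 51.5%. Among the 7 windows AGGTCA and CACGTG matched in 0, GACGCA in 1 (cox-5A), GAGAGA in 1 (ucr-2.2) and TTTCAG in 2 (mev-1 and atp-2). Over the windows of the 1000 strongest pooled summits, AGGTCA matched in 2%, CACGTG in 2.8%, GACGCA in 10%, GAGAGA in 15.9% and TTTCAG in 12.8%. The cox-6A, cox-6B and cyc-2.1 windows held no match to any of the 5 motifs.

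In 300-bp promoters, from 250 bases before to 50 after the 5' end, the 38 genes had a median GC content of 35.2%, against 34.3% for all nuclear protein-coding genes. AGGTCA was found in 0 promoters against 8.27% of all, CACGTG in 0 against 5.82%, GAGAGA in 8 (21.1%) against 21.8%, GACGCA in 5 (13.2%) against 8.78%, and TTTCAG in 22 (57.9%) against 51.7%. Spearman's rho between promoter GC content and the pooled percentile was 0.21 across the 38 genes and -0.08 across all genes.

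Other nuclear genes of mitochondrial energy metabolism were counted by the same rule from 6 lists of 143 genes in all. A thresholded summit lay near 7 of them (4.9%), against 0.926% of all nuclear protein-coding genes. A summit among the 1000 strongest pooled ones lay near 22 (15.4%), against 3.58% of all genes, beside 18.4% of the 38 respiratory genes. In replicate 1 the shares were 8.39%, 3.52% and 15.8% in the same order, and in replicate 2 they were 13.3%, 3.05% and 18.4%. In both replicates they were 2.8% (4 genes), 0.971% and 7.89%. No difference between these lists was tested. The 7 with a thresholded summit included sco-1, 1 of 5 assembly factors outside the rule, and ndua-2 and nduc-2 among 36 further respiratory subunits. They also included aco-2 and dld-1 among 20 genes of the citric acid cycle and pyruvate dehydrogenase. The others were mrpl-23 and mrpl-32 among 70 mitochondrial ribosomal proteins. None of 8 coenzyme Q genes and none of 4 adenine nucleotide translocase genes had a thresholded summit. Pooled signals were 41.5 at ndua-2, 42.5 at aco-2, which encodes aconitase, 38.2 at dld-1, which encodes dihydrolipoamide dehydrogenase, 39.0 at mrpl-23 and 41.0 at mrpl-32. Across 5 lists of 27 cell type markers, 1 gene, the germline gene pie-1, had a thresholded summit (3.7%), against 0.926% of all genes. That summit lay 670 bp upstream with a pooled signal of 95.7 (rank 11), and a single gene gives no reading about markers. No intestine, muscle, neuron or hypodermis marker had one, which in lists of this size is near the share of all genes.

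The mitochondrial genome carries the partner subunits of complexes I, III, IV and ATP synthase, and all 12 of those genes had a thresholded summit inside them. Of the 228 thresholded peaks, 29 lay on the mitochondrial genome. The rest of that genome was not counted, so the 12 genes give no reading about respiratory subunits. The highest signals in the 12 genes ran from 191.7 in ND6 to 3520.1 in CYTB, all above the pooled 103.2 of cox-5A. The ratio of mitochondrial to nuclear DNA copies was not measured here, and its part in those signals was not tested. In replicate 1, ND6 had a highest signal of 12.6, below the 33.3 of cox-5A in that list, and 2 of the 12, ND4L and COX2, had no summit inside.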

How the data were processed

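NHR-12 ChIP-seq was measured in 2 biological replicates of whole L2 larvae. Per the notes deposited with the files, relaxed peaks were called against a control for each replicate and for both together, and the thresholded list holds pooled peaks that passed an irreproducible discovery rate threshold. For the caller, the aligner and the threshold, names and settings were not given in the sources used here. Signal values, as deposited, come from the caller, and served to rank, filter and describe peaks only. Read depth is unknown, so no interval that needs it is given. The ce11 lists were used, with positions counted from 1, and the ce10 lists were not used.

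Summits were matched to gene 5' ends of Ensembl release 115 within 1000 bp, in Python 3.11.15 with pandas 2.3.3, numpy 2.4.6 and scipy 1.17.1, and plotted with matplotlib 3.10.9. Genes without a summit tied at the lowest percentile. The matching was tested on simulated data. No test was run, since the design has 1 group. The members, gene lists and motifs were chosen with earlier results of these data known. Full values are given for members with a thresholded summit or a summit among the 1000 strongest of both replicates, and for the 3 next highest pooled signals, and further genes were named with values in view. The alternatives tried were other distances, all transcripts' 5' ends, assignment of each summit to its nearest coding 5' end, the upper 50% of peaks, other numbers of strongest summits and each replicate alone.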

Additional observations from a re-analysis of the deposited data

How the results depend on the processing

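Of 48 alternatives, 36 stayed within 1.5 times the value reported, or within the spread of the replicates for medians. A change of direction could be scored only for the median position of thresholded summits, which stayed upstream in each alternative. Thresholded summits were counted at 2 to 4 of the 38 genes over the planned settings. The shares of all nuclear protein-coding genes were 0.696% within 500 bp, 1.31% within 2000 bp and 0.981% by all transcripts' 5' ends. With each summit given to its nearest 5' end the share was 0.646%, and for the upper 50% of peaks it was not computed. The 2 within 500 bp and in the upper 50% of peaks were cox-5A and cox-5B. The 4 were these with cox-6A and cyc-2.1 within 2000 bp, and with cox-6A and cox-6B by all transcripts' 5' ends. Chosen after seeing the data, the 199 strongest nuclear summits of 1 replicate in place of the thresholded list gave 3 genes without replicate 2 and 5 without replicate 1, which added ucr-2.2 and atp-1; complex IV subunits stayed at 3. Strong summits in both replicates were at 3 genes, and in a single replicate at 6 without replicate 2 and 7 without replicate 1. The shares of all genes were 0.971%, 3.52% and 3.05% in the same order. The median percentile of 71.9 moved to 74.8 with the strongest summit, 81.6 within 500 bp, 63.5 within 2000 bp, 64.5 without replicate 1 and 66 without replicate 2. The median position of thresholded summits, -288 bp, moved to -158 bp within 500 bp and -540 bp within 2000 bp, on 2 and 4 genes. Shared replicate summits numbered 8, against 4 within 50 bp and 14 by overlap of intervals. Depth is unknown, and 38 genes limit every share.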
